A study of Rattus norvegicus with 4 samples.

Results

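Synaptotagmins, SNARE proteins and the regulators that act on them were followed in the rat insulinoma line INS-1, which secretes insulin and serves as a model of the pancreatic beta cell. The 47 genes were those whose symbol on the array began with Syt, Sytl, Stx, Stxbp, Vamp, Snap, Rims or Cplx and a digit, or with Unc13 or Doc2. They were 47 of the 14557 genes named on the array, each with 1 probe set, and the symbol rule itself used no measured value. The glucose concentration over 7 days of culture was 11.2 mM (n = 2 arrays) or 22.4 mM (n = 2 arrays), a culture model of glucotoxicity that asks what prolonged high glucose does to gene expression. Both groups came from the same tumour-derived line, and glucose was the named difference between them. The labels number the replicates 1 and 2 without saying that they were separate cultures, so the p-values rest on array-to-array spread that could be technical in origin.

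Insulin leaves the beta cell by exocytosis of dense-core granules. A SNARE protein on the granule, of the VAMP family, zips together with a syntaxin and a SNAP-25 family protein on the plasma membrane, and this drives fusion of the membranes. Synaptotagmins are the calcium sensors that couple the rise in calcium to fusion, Munc18 proteins (Stxbp genes) hold and template the syntaxins, and Munc13, RIM and Doc2 proteins and complexins prepare the granule for release. Other syntaxins and VAMPs serve traffic through the endoplasmic reticulum, the Golgi, endosomes and lysosomes.

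Signals are log2 values of a probe set as deposited, and differences, also in log2, subtract the 11.2 mM mean from the 22.4 mM mean. The median signal of all 36685 probe sets, 4.76, served as a line between brighter and dim probe sets. Of the 47 genes, 34 lay at or above it. The 13 dim genes were Syt1, Syt2, Syt15, Syt16, Sytl1, Sytl3, Stx11, Stx19, Stxbp6, Cplx3, Cplx4, Doc2g and Unc13d, and since nothing shows their signals to exceed background, their differences may be understated. Probe sets differ in how strongly they respond, so signals are compared between arrays for a gene and not between genes. Values of Stx1a, Snap25, Vamp2, Sytl4, Rims2, Cplx1, Doc2b and Stxbp5, which belong to the fusion machinery of the beta cell, were not analysed here.

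The beta cell identity of the line was visible in the markers. All 10 measured beta cell markers, among them both insulin genes, Iapp and Slc2a2, lay above the median signal. Of these 10, 7 had negative differences. At an unadjusted p under 0.05, 3 were lower and 0 higher, against 7.2% and 6.27% of brighter probe sets. The 3 were Ins2 (-1.84), the potassium channel subunit Kcnj11 (-0.62) and the hormone convertase Pcsk2 (-0.41). The mean log2 signal of the 10 was 10.85 and 10.80 at 11.2 mM against 10.46 and 10.53 at 22.4 mM. The 4 acinar and duct markers and the 4 immune markers all lay below the median signal, as did 2 of 4 stromal and endothelial markers. Of the other islet hormones only Gcg, the glucagon gene, was bright. Of 7 neuronal markers 6 lay above the line, and the mean log2 signal of the 7 was 6.45 and 6.43 at 11.2 mM against 6.23 and 6.28 at 22.4 mM. At an unadjusted p under 0.05, 3 of the 7 were lower and 1 was higher, against the same 7.2% and 6.27% of brighter probe sets. The part of these shifts in the results below was not tested. Array medians lay between 4.73 and 4.80.

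No gene of the exocytosis set passed the test. Limma called 0 of 36685 probe sets after Benjamini-Hochberg adjustment, a share of 0%, at a threshold of 0.05, and the lowest adjusted p among the 47 genes was 0.290. Of the 47 genes, 5 had an unadjusted p under 0.05, or 10.6%, against 9.12% of all probe sets. Among the 34 brighter genes the 5 made up 14.7%, against 13.5% of all probe sets at or above the median. In single directions, 3 of the 34 were lower and 2 higher, against 7.2% and 6.27% of all brighter probe sets. These shares were close to the background. The 5 genes were Syt13, Vamp8 and Syt12, which were lower at 22.4 mM, and Sytl5 and Syt9, which were higher. Leaving out 1 array changed this number, to 3 for replicate 1 of 11.2 mM and to 2 for either array of 22.4 mM.

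The groups did not overlap, with the 22.4 mM arrays both to 1 side of the 11.2 mM arrays, in 25 of the 47 genes, 53.2%, against 40.6% of all probe sets. They lay above in 11 genes, where 19.6% of all probe sets did, and below in 14, where 21% of all did. Among the 34 brighter genes the groups did not overlap in 20, 58.8%, against 47% of all brighter probe sets and 52.1% of the 8544 brighter genes with a symbol. Of the 20, 7 lay above and 13 below, against 22.1% and 25% of brighter probe sets. The median log2 difference over the 47 genes was -0.02, beside -0.003 over all probe sets, and 28 of the 47 differences were negative. The mean absolute log2 difference over the 47 genes was 0.131 between the replicates of 11.2 mM and 0.108 between those of 22.4 mM, and from 0.156 to 0.176 in the pairs of arrays of different glucose. Over all probe sets these were 0.213, 0.172 and from 0.188 to 0.246, so that pairs with replicate 2 of 11.2 mM differed less than the 11.2 mM replicates did.

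Differences were small. The 95% intervals of the fit lay within a 2-fold change either way for all 47 genes, and within a 1.5-fold change for 40. Most of the 36685 probe sets did so too, 33982 within 2-fold and 25738 within 1.5-fold. The 7 members with limits wider than 1.5-fold were Syt13, Vamp8, Syt12, Syt9, Syt4, Syt1 and Stx11. The absolute difference was under 0.1 in 23 of the 47, and in 16477 of the 36685 probe sets.

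**Figure D1:**
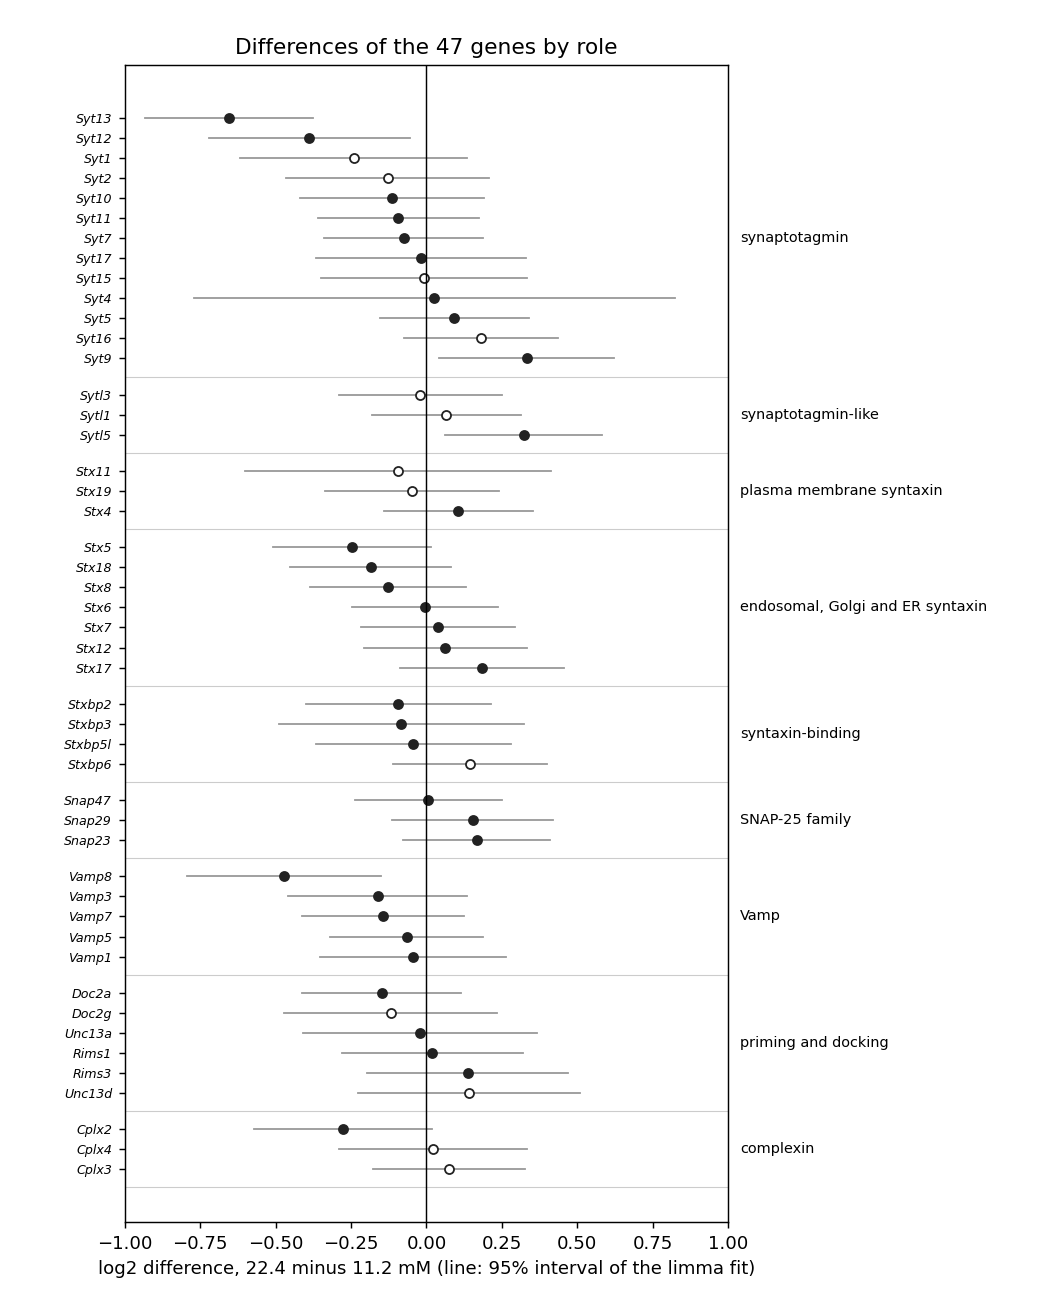
Log2 difference between 22.4 mM and 11.2 mM glucose for each of the 47 genes, grouped by role, with lines for the 95% interval of the limma fit (2 arrays in each group). Filled points are the 34 genes at or above the median signal and open points the 13 dim genes; most intervals cross 0, and those of Syt13, Syt12, Vamp8, Sytl5 and Syt9 do not.

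The synaptotagmins held both the lowest and the highest difference of the 47 genes. Of 13 measured, 9 had negative and 4 positive differences, from -0.65 for Syt13 to 0.33 for Syt9, with a median of -0.08. An unadjusted p under 0.05 was met in 3 of the 13 (23.1%, against 9.12% of all probe sets), 2 lower and 1 higher. The groups did not overlap in 7 of the 13, 53.8%, against 40.6% of all probe sets.

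Syt13 (probe set 17764207) encodes an atypical synaptotagmin whose C2 domains lack the residues that bind calcium. Its log2 signals were 8.81 and 8.91 at 11.2 mM, against 8.15 and 8.26 at 22.4 mM. Both arrays of high glucose lay below both of the other group, by several times the gap between replicates. The difference was -0.65 (SE 0.106, 95% interval -0.93 to -0.38), which is 1.57-fold lower, with an unadjusted p of 0.00201 and an adjusted p of 0.290 in limma. With each array left out in turn the size of the difference varied from -0.71 to -0.60.

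Syt12 (17639269), likewise a synaptotagmin that does not bind calcium, had log2 signals of 7.38 and 7.39 at 11.2 mM, against 6.87 and 7.13 at 22.4 mM. The 11.2 mM arrays were nearly level, and both 22.4 mM arrays lay below them at some distance from each other. The difference was -0.39 (SE 0.127), with a limma adjusted p of 0.489. Replicate 1 of 22.4 mM carried much of it, and without that array the difference was -0.26.

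Syt9 (17619355) encodes a calcium sensor found on dense-core granules of insulin-secreting lines. The names synaptotagmin 5 and synaptotagmin 9 have been exchanged in the older literature, and the symbols here are those of the array annotation. Its log2 signals were 8.05 and 8.19 at 11.2 mM, against 8.40 and 8.51 at 22.4 mM, with no overlap. The mean was 8.12 ± 0.0995 (SD, n = 2) in the lower glucose and 8.46 ± 0.0831 (SD, n = 2) in the higher. The difference of 0.33 (SE 0.110) corresponds to a 1.26-fold higher signal, with an adjusted p of 0.495 in limma.

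The calcium sensors Syt7 and Syt5 lay close to level. Syt7 (17624015), the high-affinity sensor tied to insulin and glucagon release in mice, gave log2 signals of 10.23 and 10.28 at 11.2 mM, against 10.24 and 10.13 at 22.4 mM. The groups overlapped, and the difference was -0.08 with a 95% interval from -0.34 to 0.19. Syt5 (17613154) had 9.35 and 9.40 at 11.2 mM, against 9.46 and 9.47 at 22.4 mM. Its groups did not overlap, but the difference was only 0.09 (95% interval -0.16 to 0.34).

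Syt4 (17725247), which sets the calcium sensitivity of insulin release as mouse beta cells mature, had the widest replicate gap of the 47 genes and was chosen for mention after its values were seen. Signals were 8.13 and 7.24 at 11.2 mM, against 7.74 and 7.69 at 22.4 mM. Both high-glucose arrays lay between the 11.2 mM arrays, so the difference of 0.03 had an interval from -0.77 to 0.82. The remaining brighter synaptotagmins, Syt10, Syt11 and Syt17, differed by -0.11, -0.09 and -0.02. Of the dim ones, Syt1 and Syt2, the fast sensors of synapses, differed by -0.24 and -0.13, Syt15 by -0.01 and Syt16 by 0.18.

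Synaptotagmin-like proteins bind the small GTPase Rab27 and carry granules to the plasma membrane. Sytl5 (17876077) was the 1 brighter gene of the 3 measured. Signals of Sytl5 were 6.87 and 6.84 at 11.2 mM, against 7.23 and 7.12 at 22.4 mM. Both high-glucose arrays lay above both others, and the difference was 0.32 (SE 0.0993), 1.25-fold higher, with a limma adjusted p of 0.476. The dim Sytl1 and Sytl3 differed by 0.07 and -0.02.

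**Figure D2:**
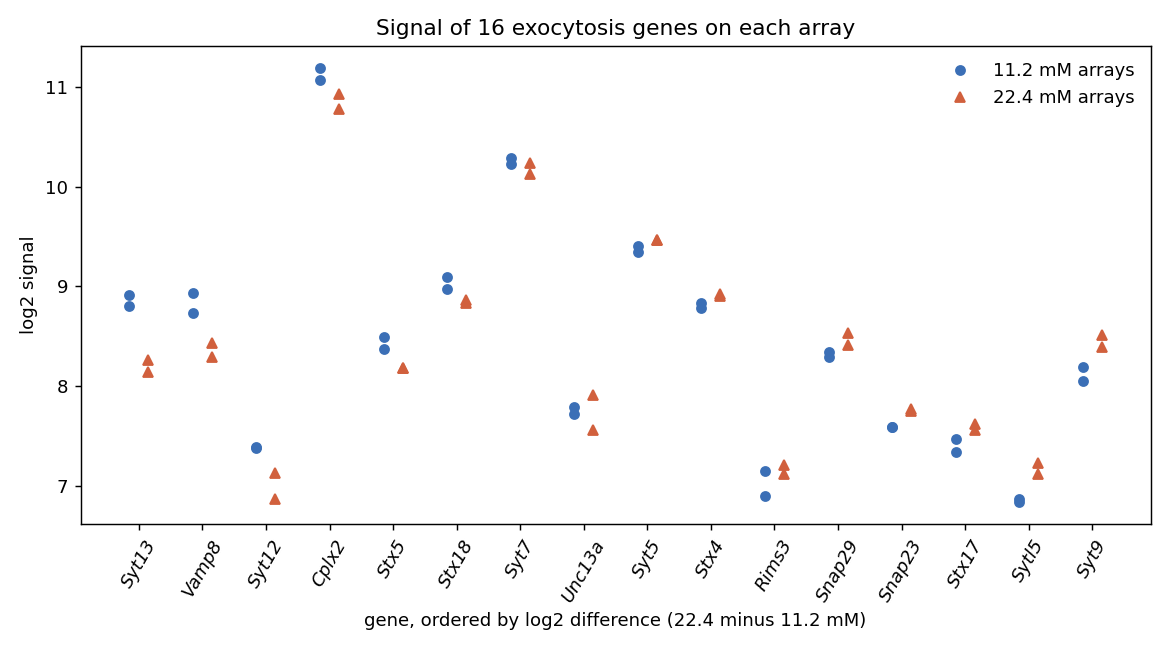
Log2 signal (vertical axis) on each of the 4 arrays for the 16 genes named with values from every array by rule, ordered by their difference, with circles for the 2 arrays of 11.2 mM and triangles for the 2 of 22.4 mM. Syt13, Vamp8 and Syt12 at the left show triangles below circles, and Sytl5 and Syt9 at the right show them above, whereas those of Syt7, Unc13a and Rims3 overlap.

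All 5 VAMP genes, the SNAREs of the vesicle side, had negative differences, from -0.47 to -0.04, and the groups did not overlap in 4, where 47% of brighter probe sets did not overlap and 25% were so in this direction. Of the 5, 1 had an unadjusted p under 0.05, Vamp8, against 13.5% of brighter probe sets. Vamp8 (17792277), endobrevin, is a SNARE of endosomes and of regulated secretion that supports the incretin-potentiated release of insulin in mice. Its log2 signals were 8.94 and 8.73 at 11.2 mM, against 8.43 and 8.30 at 22.4 mM. Both high-glucose arrays lay below both others. The difference was -0.47 (SE 0.123, 95% interval -0.79 to -0.15), 1.39-fold lower, with an unadjusted p of 0.0137 and a limma adjusted p of 0.422. Without 1 array at a time it ranged from -0.58 to -0.37.

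Vamp5, a VAMP first known from muscle, is the next protein-coding gene to Vamp8 in the RefSeq annotation of rat assembly GRCr8, and no other genes of the set neighbour each other there. Its difference was -0.07. The ubiquitous Vamp3 (cellubrevin) differed by -0.16, less than the gap of 0.199 between the 11.2 mM replicates. Vamp7, a SNARE of late endosomes and lysosomes, differed by -0.14 and the synaptic Vamp1 by -0.04.

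Promoters are shown for Vamp8 and Syt9, the genes with a listed promoter among the fusion genes of the beta cell that had an unadjusted p under 0.05, since they lay on opposite sides. Each runs 5′ to 3′ on the gene's strand from 250 bases before to 50 after the annotated start, from RefSeq on GRCr8, at chr4:106005593-106005892 (minus strand) for Vamp8 and chr1:170687555-170687854 (plus strand) for Syt9. Capitals mark the GC box, GGGCGG on either strand, a letter motif of many promoters.
Vamp8: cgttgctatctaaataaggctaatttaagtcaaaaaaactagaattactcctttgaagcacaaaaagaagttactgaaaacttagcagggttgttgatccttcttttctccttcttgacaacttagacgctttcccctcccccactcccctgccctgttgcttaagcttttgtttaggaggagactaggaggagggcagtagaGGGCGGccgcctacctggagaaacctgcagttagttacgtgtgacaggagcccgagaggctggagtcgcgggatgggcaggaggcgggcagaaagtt
Syt9: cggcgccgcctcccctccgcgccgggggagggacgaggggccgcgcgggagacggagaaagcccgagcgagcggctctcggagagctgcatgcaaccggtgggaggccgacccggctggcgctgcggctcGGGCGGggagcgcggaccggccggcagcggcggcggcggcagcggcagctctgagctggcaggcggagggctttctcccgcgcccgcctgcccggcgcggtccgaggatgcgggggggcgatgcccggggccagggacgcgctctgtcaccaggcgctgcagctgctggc

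Both promoters held 1 GC box, and they differed in base composition, with 49% G and C for Vamp8 and 79.7% for Syt9. Neither window held the E-box CACGTG, the letters that glucose-responsive basic helix-loop-helix factors can bind, or TGACG, the half-site of the cyclic AMP response element, on either strand. RefSeq promoters were listed for 38 of the 47 genes. The GC box was in 20 of these (52.6%) and in 33.1% of all 33469 promoters of the same length, the E-box in 4 (10.5%) and in 6.42% of all, and TGACG in 12 (31.6%) and in 21.2% of all. The 4 genes with the E-box were Cplx3, Snap29, Stx6 and Stxbp2, named after the search, and none of them had an unadjusted p under 0.05. The median share of G and C was 58.3% over the 38 promoters and 51.7% over all, so these motif shares are descriptions of windows of unequal composition. The 38 were also taken as 1 promoter per gene, whereas the 33469 were not reduced in this way.

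The plasma membrane syntaxins were represented by 1 brighter gene. Stx4 (17621010), which takes part in insulin granule fusion and in glucose transporter traffic, had log2 signals of 8.84 and 8.79 at 11.2 mM, against 8.91 and 8.92 at 22.4 mM. The groups did not overlap, and the difference was 0.10 (95% interval -0.14 to 0.35). The dim Stx11 and Stx19 differed by -0.09 and -0.05.

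The 7 syntaxins of endosomes, the Golgi and the endoplasmic reticulum were all bright, and their differences ran from -0.25 to 0.18 with a median of -0.004. None had an unadjusted p under 0.05, and the lowest was 0.0593, for Stx5. Stx5 (17623705), the syntaxin of transport between the endoplasmic reticulum and the Golgi, had log2 signals of 8.49 and 8.38 at 11.2 mM and 8.19 on both arrays of 22.4 mM. The 22.4 mM arrays lay below both others, by a difference of -0.25 (SE 0.0999). Stx18 (17695036), an endoplasmic reticulum syntaxin of retrograde transport, had 9.10 and 8.97 against 8.83 and 8.86, again without overlap, and differed by -0.18.

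Stx17 (17798739), which joins autophagosomes to lysosomes, had log2 signals of 7.34 and 7.47 at 11.2 mM, against 7.56 and 7.62 at 22.4 mM. These groups did not overlap either, and the difference was 0.18 (SE 0.104). Stx8, a late endosomal syntaxin, differed by -0.13. Stx6 of the trans-Golgi network had a signal of 7.60 on all 4 arrays, and counts among the genes without overlap though its difference was -0.004; its array values are given after they were seen. Stx7 and Stx12, of endosomes, differed by 0.04 and 0.06 with overlap.

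The SNAP-25 family genes measured, Snap23, Snap29 and Snap47, had positive differences of 0.17, 0.15 and 0.01. Snap23 (17765314), the widely expressed relative of SNAP-25, had log2 signals of 7.60 on both arrays of 11.2 mM and 7.77 and 7.76 at 22.4 mM. Replicates were almost identical and the groups lay apart, but the fit, which draws the spread of each gene toward that of all probe sets, gave a 95% interval from -0.08 to 0.41. Snap29 (17670816), a partner of Stx17 in autophagosome fusion, had 8.30 and 8.34 at 11.2 mM, against 8.41 and 8.53 at 22.4 mM. Its groups did not overlap, with a 95% interval from -0.11 to 0.42.

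Of the syntaxin-binding genes, the Munc18 genes Stxbp2 and Stxbp3 differed by -0.09 and -0.08. Stxbp3, the partner of Stx4, had a gap between the 11.2 mM replicates, 7.86 and 7.48, that was wider than this difference. Stxbp5l, tomosyn-2, a syntaxin-binding inhibitor of insulin release in mice, differed by -0.04. The dim Stxbp6, amisyn, differed by 0.14. It was the only 1 of these 4 genes in which the groups did not overlap, against 40.6% of all probe sets.

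Priming genes were near level. Unc13a (17710768) encodes Munc13-1, which opens syntaxin and readies granules for release. On the log2 scale its arrays read 7.79 and 7.72 at 11.2 mM, against 7.91 and 7.56 at 22.4 mM, so the high-glucose arrays lay on either side of the others, and the difference was -0.02 (95% interval -0.41 to 0.37). Rims3 (17801739), a short RIM protein, had 6.91 and 7.16 against 7.21 and 7.12, with overlap and a difference of 0.14 (SE 0.127). This difference was 0.01 when replicate 1 of 11.2 mM was left out, and 0.26 when replicate 2 was. Rims1 differed by 0.02, Doc2a, a calcium-binding priming factor, by -0.15, and the dim Doc2g and Unc13d by -0.12 and 0.14. Of these 6 genes the groups lay apart in 1, Doc2a, against 40.6% of all probe sets.

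Among complexins, which clamp and promote the assembled SNARE complex, Cplx2 (17718351) was the 1 bright gene. Its log2 signals were 11.19 and 11.07 at 11.2 mM, against 10.78 and 10.93 at 22.4 mM. Both high-glucose arrays lay below both others, and the difference was -0.28 (SE 0.113, 95% interval -0.57 to 0.02), 1.21-fold lower. The dim Cplx3 and Cplx4 differed by 0.07 and 0.02.

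**Figure D3:**
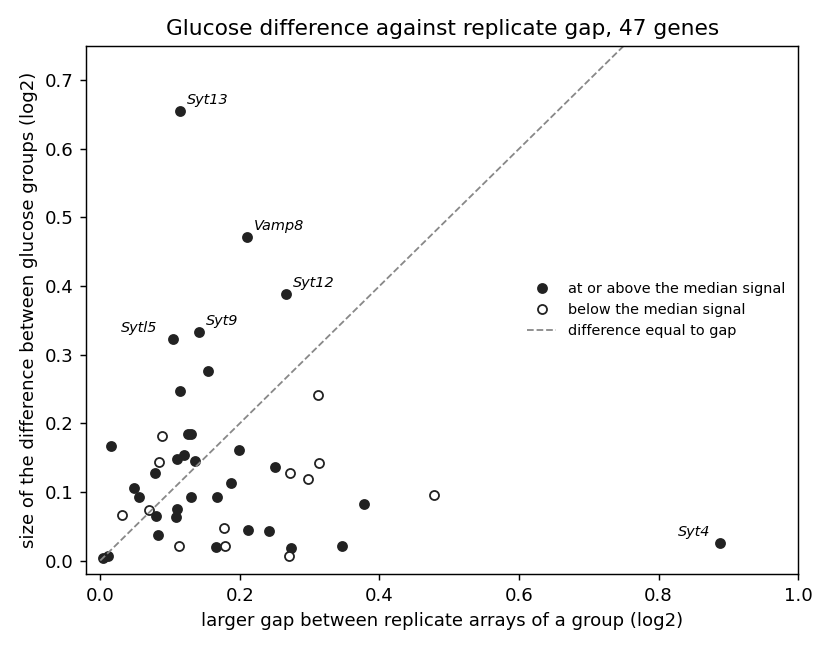
Size of the log2 difference between glucose groups (vertical axis) against the larger of the gaps between replicate arrays (horizontal axis) for the 47 genes. In 26 of the 47 the gap was larger than the difference (points below the dashed line); Syt13 lies highest, and Syt4, with a gap of 0.888, lies farthest right.

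Replicate gaps were as large as most glucose differences. In 26 of the 47 genes the gap between replicates of at least 1 group exceeded the difference between the groups. Over all probe sets this held for a larger share, 26741 of the 36685. The 5 genes with an unadjusted p under 0.05 were not among the 26, which their low p largely fixes in advance.

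**Figure D4:**
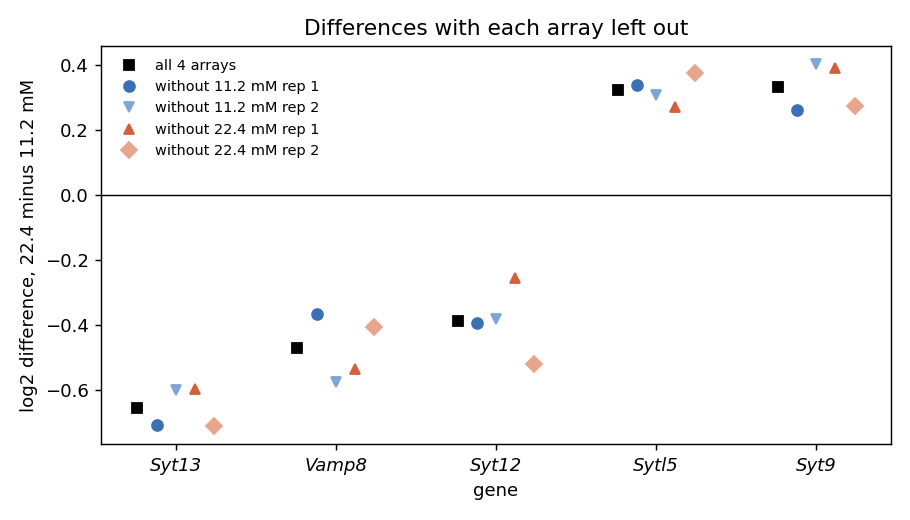
Log2 difference between 22.4 mM and 11.2 mM (vertical axis) of the 5 genes with an unadjusted p under 0.05, from all 4 arrays (squares) and with each array left out in turn. As the groups do not overlap in these genes, no left-out array could move a point across 0; the points show how the size varies, and Syt12 spans the widest range, from -0.52 to -0.26.

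With each array left out in turn, the size of these differences moved while the sign could not turn, since the groups did not overlap in any of the 5 genes. Vamp8 lay between -0.58 and -0.37, Syt12 between -0.52 and -0.26, Sytl5 between 0.27 and 0.38 and Syt9 between 0.26 and 0.40. With 3 arrays, none of the 5 had a limma adjusted p under the threshold.

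Genes that work with this machinery were counted from lists of pathway genes. Of 22 listed SNARE partners and tethers, such as the ATPase Nsf that takes SNARE complexes apart, 17 were measured. An unadjusted p under 0.05 was met in 2 of the 17, a share like the 13.5% of brighter probe sets. Both were lower, as were 7.2% of brighter probe sets. The median difference was -0.007. These were Scfd2 (17689418), a Sec1 family protein, with log2 signals of 6.69 and 6.80 at 11.2 mM, against 6.21 and 6.27 at 22.4 mM (difference -0.50, SE 0.101), and the endosomal tether Vps33b (17617775), with a difference of -0.27. Nsf, named as an example and not by its p, differed by 0.20 (SE 0.133).

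Of 18 measured out of 30 listed genes of granule docking and tethering, 3 were lower and 1 was higher at an unadjusted p under 0.05. Over all probe sets 4.75% were lower and 4.36% higher. Of the 18 genes 14 were brighter, and among brighter probe sets 7.2% were lower and 6.27% higher. The median difference of the 18 was -0.07. Rab27a (17845817), the granule GTPase that recruits the synaptotagmin-like proteins, had log2 signals of 8.59 and 8.57 at 11.2 mM, against 7.89 and 7.97 at 22.4 mM, a difference of -0.65 (SE 0.0961). Sytl5, of that protein family, lay on the opposite side. Rimbp2 (17673423), which links RIM proteins to calcium channels, had 8.91 and 9.06 against 8.48 and 8.42, a difference of -0.54 (SE 0.107). Rab3c (17745151), a Rab3 GTPase of secretory vesicles, differed by -0.41 and the exocyst subunit Exoc6 (17641812) by 0.36. The groups did not overlap in 12 of the 18 genes, 3 higher and 9 lower, against 40.6% of all probe sets and 47% of brighter ones. The 4 named genes were among the 12, which follows largely from choosing them by a low p. The lowest limma adjusted p was 0.255, for Rab27a.

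Of 16 measured out of 19 listed genes of vesicle and granule membranes, 13 had negative differences, with a median of -0.15, and the groups did not overlap in 9, of which 8 were lower. Over all probe sets 40.6% did not overlap, 21% in the lower direction. At an unadjusted p under 0.05, 2 of the 16 were lower and 0 higher. Over all probe sets 4.75% were lower and 4.36% higher, and among brighter ones 7.2% and 6.27%. The vesicle glycoprotein gene Sv2a (17740956) lay above the median signal, with log2 values of 8.19 and 8.24 at 11.2 mM, against 7.79 and 7.85 at 22.4 mM, a difference of -0.39 (SE 0.0959) and a limma adjusted p of 0.403. The other was the dim Sv2b, named after its values were seen.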

How the data were processed

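Total RNA of INS-1 cells was hybridized as labelled cDNA to 4 Affymetrix arrays, 2 for each glucose group, per the labels' protocols. The authors deposited 1 table of log2 values for 36685 probe sets. Base 2 was inferred from the values. How the arrays were background-corrected, normalized and summarized is not given in the labels or the table. Values were used as deposited, without a filter. The platform annotation names 14824 probe sets with 1 gene symbol, and all 47 members' Entrez identifiers were found in the RefSeq table (GRCr8) with 0 symbols changed.

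The glucose groups were fitted in R 4.3.3 with limma 3.58.1 (lmFit, then eBayes, two-sided, 2 residual degrees of freedom) over all probe sets with Benjamini-Hochberg adjustment. Precision is limited by having 4 arrays, and the median SE of a difference was 0.121. The code was tested on simulated data with the spread of these arrays, at the same adjusted threshold. It called 63 of 100 probe sets given a log2 difference of 2 either way. Of 100 given a difference of 1 either way it called 7, and of 36485 left unchanged it called 2. The adjusted test therefore misses most differences of 1 or less.

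Members, gene lists and tests were chosen with earlier results of these data known, and promoter motifs after the values were seen. Values from every array were given for listed fusion genes of the beta cell, for members with an unadjusted p under 0.05, for the 6 largest differences each way among brighter members, and for brighter members with replicate 1 of 11.2 mM more than 0.5 from every other array, of which there were 0. Up to 4 brighter pathway genes per list with an unadjusted p under 0.05 were named by the smallest p. Nsf and the dim Sv2b were named outside this rule. Alternatives were 2 normalizations, 2 sets of probe sets, the variance model, a replicate block, the mean of a gene's probe sets and each array left out.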

Additional observations from a re-analysis of the deposited data

How the results depend on the processing

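Of 11 alternative settings, 5 left the differences of the 16 genes named by rule as they were by construction, and in the 13 of these genes without overlap no left-out array could turn the sign. Signs therefore say little about stability. None of the 16 passed the adjusted threshold in any of the 11 settings. The sign turned in 1 of the 3 genes with overlap, Unc13a, whose difference ranged from -0.19 to 0.15 with 1 array left out; it turned to 0.01 without replicate 1 of 11.2 mM and to 0.15 without replicate 2 of 22.4 mM, where its sign is not settled. Testing only the 14824 probe sets with 1 gene symbol called 62 of them (0.418%), against 0 when all probe sets were tested. Fewer were tested in this setting, and the fit drew its spread from them alone. The unadjusted limma p of Syt13 was 0.000696 there, against 0.00201 with all probe sets. Of the 47 genes, 0 were among the 62. The lowest adjusted p of the 47 was 0.0756, for Syt13, which had 0.544 with the replicate block. The setting with 1 gene symbol, and the one with a trended, robust variance, each gave 7 genes at an unadjusted p under 0.05, adding Stx5 and Cplx2. With 1 array left out this number was 2 to 4. The replicate numbers were not shown to pair the samples: the differences between replicates 1 and 2 correlated at -0.0778 between the groups, across probe sets, which are not independent. With the replicate block 5 genes had an unadjusted p under 0.05, as without it, and 0 probe sets passed. Genes without overlap numbered 24 with arrays centred on their medians or quantile normalized. The mean of a gene's probe sets left the differences of the 47 genes as they were, as each had 1. It moved their p slightly, with a limma adjusted p of 0.293 for Syt13 against 0.290 in the main fit. The number of arrays limits these comparisons. Signals were not shown to be above background for any gene, and 13 of the 47 lay below the median signal.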
